A study of Mus musculus with 12 samples.

Results

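The CC chemokines are 10 genes here, *Ccl2*, *Ccl3*, *Ccl4*, *Ccl5*, *Ccl7*, *Ccl8*, *Ccl11*, *Ccl12*, *Ccl20* and *Ccl25*, taken by symbol from 45563 gene symbols measured by RNAseq in cultured mouse oligodendrocyte precursor cells (OPCs). OPCs were purified with anti-PDGFRα beads from the cortices of C57BL/6 pups, wild type (WT) or carrying a germline deletion of *Tnfrsf1b*, the gene of the TNF receptor TNFR2 (TNFR2-/-), so that every cell of those pups carried the allele. At 3 days in vitro the cells were non-stimulated (NS, vehicle) or stimulated (St) for 3 h with TNF, IFNγ and IL1β at 25 ng/mL each. The 12 libraries form 4 groups of 3, with replicates 2, 3 and 4 of WT NS and WT St, and replicates 2, 4 and 5 of TNFR2-/- NS and TNFR2-/- St.

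CC chemokines are small secreted proteins named for a pair of adjacent cysteines near their mature N-terminus. They bind G protein-coupled receptors on leukocytes and on microglia and draw these cells along a gradient. *Ccl2*, *Ccl7* and *Ccl12* encode monocyte chemoattractants that act on the receptor CCR2. *Ccl8* lies in the same gene cluster, and *Ccl11* encodes eotaxin, an attractant of eosinophils through CCR3. *Ccl3*, *Ccl4* and *Ccl5* encode attractants of monocytes and T cells, *Ccl20* the ligand of CCR6, and *Ccl25* the ligand of CCR9, which is best known in the thymus and small intestine. In many cell types the inflammatory members of the family are transcribed within hours of TNF or IL1β, largely through NF-κB, and are further raised by IFNγ.

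On GRCm38 (GENCODE M21), 8 of the 10 genes lie on chromosome 11 in 2 clusters. *Ccl2* (chr11:82035571-82037453), *Ccl7* (chr11:82045712-82047525), *Ccl11* (chr11:82057823-82062955), *Ccl12* (chr11:82101845-82103400) and *Ccl8* (chr11:82115185-82116799) follow each other on the plus strand, with gaps of 8.26 to 38.9 kb. *Ccl5* (chr11:83525778-83530518, minus strand), *Ccl3* (chr11:83647844-83649355, minus strand) and *Ccl4* (chr11:83662584-83664683, plus strand) form the other, 1409 kb further on. *Ccl20* (chr1:83116766-83119167) and *Ccl25* (chr8:4325210-4360020) lie alone, both on the plus strand. No sequence of 100 bases in the transcripts of the 10 genes was shared with the transcripts of another gene, read in the sense direction alone. The coding sequence around the paired cysteine codons, which are in capitals, is shown for the 5 neighbors of the first cluster because the responses of these genes are compared below.
Ccl2: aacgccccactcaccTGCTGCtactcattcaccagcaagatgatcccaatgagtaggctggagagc
Ccl7: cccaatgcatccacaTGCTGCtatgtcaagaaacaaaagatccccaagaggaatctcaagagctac
Ccl11: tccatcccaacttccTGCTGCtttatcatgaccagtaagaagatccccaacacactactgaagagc
Ccl12: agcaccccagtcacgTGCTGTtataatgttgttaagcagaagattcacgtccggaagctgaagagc
Ccl8: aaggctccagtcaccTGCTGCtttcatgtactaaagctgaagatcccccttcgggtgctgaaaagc
Compared with the 66 bases of *Ccl2* position by position, without gaps, *Ccl11* had 40 equal bases, *Ccl8* and *Ccl12* 39 each, and *Ccl7* 27.

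Promoter sequences from RefSeq (GRCm38.p6) were matched for 5 of the members, *Ccl3*, *Ccl8*, *Ccl12*, *Ccl20* and *Ccl25*. The 250 bases before the start site are shown for 3 whose St libraries lay above their NS libraries in both genotypes, with motif matches in capitals. In *Ccl20* (chr1:83116516-83116765) the capitals mark the single match to the NF-κB consensus searched, 80 bases before the start.
Ccl20: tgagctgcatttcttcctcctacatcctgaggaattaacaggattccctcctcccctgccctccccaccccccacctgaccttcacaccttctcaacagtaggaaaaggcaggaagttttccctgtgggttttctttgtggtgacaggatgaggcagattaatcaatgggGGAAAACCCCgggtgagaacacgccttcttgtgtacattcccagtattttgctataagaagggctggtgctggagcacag
In *Ccl12* (chr11:82101595-82101844) and *Ccl8* (chr11:82114935-82115184) the capitals mark TATAAA, 31 and 32 bases before the start.
Ccl12: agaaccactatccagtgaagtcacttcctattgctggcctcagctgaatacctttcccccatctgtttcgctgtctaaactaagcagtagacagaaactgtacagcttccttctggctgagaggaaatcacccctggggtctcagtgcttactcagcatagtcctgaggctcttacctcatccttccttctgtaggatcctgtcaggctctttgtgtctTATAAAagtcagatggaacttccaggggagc
Ccl8: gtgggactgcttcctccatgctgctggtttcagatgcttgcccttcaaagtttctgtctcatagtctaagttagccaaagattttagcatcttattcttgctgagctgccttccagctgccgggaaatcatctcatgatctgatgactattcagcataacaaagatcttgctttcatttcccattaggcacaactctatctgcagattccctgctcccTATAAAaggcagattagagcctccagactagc
Both strands were searched for the NF-κB consensus, GAS (TTCNNNGAA), an ISRE core (GAAA, any 2 bases, GAAA), AP-1 (TGANTCA) and TATAAA. Among the windows not shown, that of *Ccl25* at chr8:4349338-4349587 held TATAAA, 16 bases before the start. No window of the 5 members held GAS, the ISRE core or AP-1. Of all 32851 promoter windows of this length, 7.25% held the NF-κB consensus, 7.02% GAS, 2.98% the ISRE core, 6.75% AP-1 and 12.4% TATAAA. A match is a run of letters and not evidence of binding.

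The deposited values are FPKM, from which whole read pairs were recovered for all 26636 symbols above 0 in at least 2 libraries. Totals ranged from 26886878 to 30335265 read pairs per library. *Tnfrsf1b* had more reads in the libraries labelled TNFR2-/- than in WT. It had 12 to 24 read pairs in WT NS and 61 to 145 in WT St. The range was 213 to 346 in the libraries labelled TNFR2-/- NS and 282 to 356 in those labelled TNFR2-/- St. Counts per gene do not show which exons the reads cover, so they could not test the labels. In each sentence below TNFR2-/- therefore means a library so labelled. Markers of OPCs were abundant, at a sum of 7115 to 9953 RPM (read pairs scaled to the library total) over 8 genes. Markers of microglia and macrophages summed to 15.4 to 22.2 RPM over 16 genes, with at most 3 reads of *Cx3cr1*, *C1qa*, *C1qb*, *C1qc*, *Tyrobp*, *Aif1*, *Ptprc* and *Ctss* in any library, and the 9 lymphocyte markers summed to at most 0.198. Astrocyte markers (8 genes) summed to 1875 to 2239 RPM in WT and to 2801 to 4529 in TNFR2-/- libraries, highest in replicate 5 under both conditions. Mural and fibroblast markers (8 genes) summed to 256 to 874 in WT and to 76.4 to 542 in TNFR2-/- libraries, mostly reads of *Acta2*.

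Without cytokines 3 of the 10 chemokines were measured well above a few reads. *Ccl2* had 297, 119 and 226 read pairs in WT NS replicates 2, 3 and 4, and 288, 315 and 131 in TNFR2-/- NS replicates 2, 4 and 5. *Ccl7* had 94, 55 and 57 in WT NS, and 73, 99 and 35 in TNFR2-/- NS. *Ccl25* had 203, 200 and 200 in WT NS, and 152, 178 and 158 in TNFR2-/- NS. Both genotypes overlapped for *Ccl2* and *Ccl7*, while the *Ccl25* counts did not. *Ccl5* had 0 to 6 read pairs in any NS library, *Ccl20* 0 to 4, *Ccl3* 0 to 2, and *Ccl11* and *Ccl12* 0 or 1. *Ccl4* and *Ccl8* had none in any of the 6 NS libraries, and 3 read pairs over the libraries of a group is the upper limit that a count of 0 allows, for counting error alone.

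**Figure D1:**
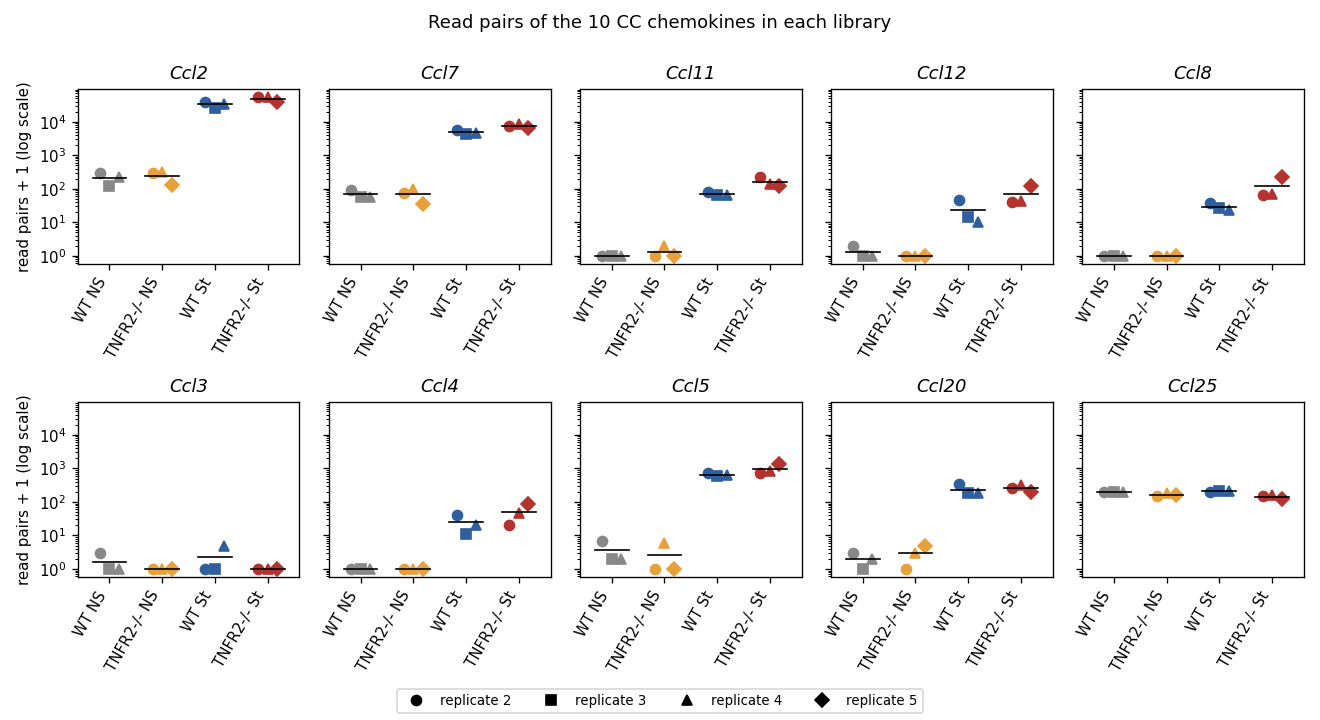
Read pairs plus 1, on a log scale, of each CC chemokine in the 12 libraries. Points are libraries, shaped by replicate number, and lines are group means (n = 3). *Ccl2* runs from 119 to 315 read pairs in NS and from 25852 to 54151 in St libraries, and *Ccl25* stays between 122 and 216 throughout.

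The divisor behind a gene's FPKM came within 2-fold of its annotated exon length for 27.4% of 27024 genes and for 3 of the 10 members, so levels were compared between genes as reads per kb of annotated exon, scaled to library totals. On this scale *Ccl2* led in WT NS at 6.40 ± 2.41 (SD, n = 3), followed by *Ccl7* at 2.95 ± 0.839 and *Ccl25* at 0.935 ± 0.0563. The *Ccl2* and *Ccl7* libraries overlapped in that order, and *Ccl25* lay below all libraries of both. The annotated exons of *Ccl25* cover 7445 bases, against 1138 for *Ccl2* and 801 for *Ccl7*. In read pairs *Ccl25* lay above *Ccl7* in WT NS, at 200 to 203 against 55 to 94. The place of *Ccl25* in each order therefore rests on this length, and which of its exons were expressed was not tested. In WT St the order was *Ccl2* (957 ± 186), *Ccl7* (199 ± 31.1), *Ccl5* (22.1 ± 2.59) and *Ccl20* (5.47 ± 2.17), each separate from the next. *Ccl11* (2.13 ± 0.310), *Ccl8* (1.82 ± 0.516), *Ccl12* (1.36 ± 1.19), *Ccl4* (1.19 ± 0.796) and *Ccl25* (0.925 ± 0.0362) followed with overlapping neighbors, and *Ccl3*, with reads in 1 of its 3 libraries, was last at 0.0578. In TNFR2-/- St the leading genes were again *Ccl2* (1450 ± 203), *Ccl7* (311 ± 34.3) and *Ccl5* (35.0 ± 12.7). *Ccl8* came next there at 8.01 ± 6.35, but its libraries overlapped those of *Ccl20* (6.23 ± 1.22), *Ccl20* those of *Ccl11* (4.89 ± 1.64), and *Ccl11* those of *Ccl12* (4.26 ± 2.94). *Ccl4* (2.60 ± 1.76) overlapped *Ccl12* and lay above *Ccl25* (0.642 ± 0.0660), and *Ccl3* was at 0.

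Stimulation of WT OPCs raised 6 of the 10 chemokines, *Ccl2*, *Ccl5*, *Ccl7*, *Ccl8*, *Ccl11* and *Ccl20*, and lowered none. A gene counted as called when it passed an adjusted p of 0.05, changed by 1.5-fold or more and had a mean FPKM of 1 or more over the 12 libraries. *Ccl8* met this mean only through the TNFR2-/- St group, with 0.512 FPKM over the 6 WT libraries. Of all 18081 genes tested with limma, 4.58% were called higher and 2.95% lower in WT St vs. WT NS. The median log2 fold change of the 10 members was 2.23, against -0.05 over all genes tested. WT St and WT NS libraries did not overlap, with St higher, for 8 members, the 6 called and *Ccl4* and *Ccl12*, as for 13.7% of all genes.

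The monocyte chemoattractants *Ccl2* and *Ccl7* reached the highest counts of the family. In WT St replicates 2, 3 and 4, *Ccl2* had 38522, 25852 and 33920 read pairs, which placed it 36th, 78th and 48th among all genes by reads. Pooled over the group this was 147 times its level in WT NS (log2 fold change in the limma fit of 7.24 ± 0.35 SE, adjusted p 1.6e-07). *Ccl7* rose to 5647, 4213 and 4540 read pairs, 67.3 times its NS level (5.79 ± 0.26, adjusted p 1.2e-07). Within each culture, taken as the NS and St libraries of 1 genotype and number, *Ccl2* rose 129-, 195- and 149-fold, and *Ccl7* by at most 79.3-fold. Replicate 3, lowest for *Ccl2* without cytokines, had the largest *Ccl2* ratio and the lowest *Ccl2* count after stimulation, whereas the largest *Ccl7* ratio was that of replicate 4.

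*Ccl5*, which draws T cells and monocytes, went from 6, 1 and 1 read pairs in WT NS to 723, 577 and 618 in WT St. The fitted change was 7.48 ± 0.59 (adjusted p 7.9e-06) and the ratio of pooled reads 231, with a 95% counting interval of 117 to 536. *Ccl20*, the ligand of CCR6, went from 2, 0 and 1 to 341, 178 and 182 read pairs (2.87 ± 0.21, adjusted p 4.1e-06), a ratio of 225 with a counting interval of 76.7 to 1094. *Ccl11* was at 0 in each WT NS library and had 81, 63 and 64 read pairs in WT St (5.07 ± 0.22, adjusted p 8.6e-08), at least 66.8-fold higher when 3 reads over the NS group stand for 0. *Ccl8* was also at 0 and had 37, 25 and 22 read pairs (1.59 ± 0.36, adjusted p 0.0118), at least 27.0-fold higher. Counting intervals and these bounds cover counting error alone. The mean of *Ccl8* was 0.512 FPKM over the 6 WT libraries, and it passed the mean threshold over the 12 libraries through the TNFR2-/- St group. Its call was lost with a pseudocount of 1 FPKM (adjusted p 0.0581) and without WT St replicate 2 (adjusted p 0.0503).

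*Ccl4* and *Ccl12* were at low counts and missed the test in WT. *Ccl4* was at 0 in WT NS and had 41, 10 and 20 read pairs in WT St, with a fitted log2 difference of 0.92 ± 0.30 and an adjusted p of 0.0655. With the culture as a replicate block its adjusted p was 0.0453 as a fixed term and 0.0130 as a random one. *Ccl12* had 1, 0 and 0 read pairs in WT NS and 44, 13 and 9 in WT St (0.70 ± 0.30, adjusted p 0.149, or 0.0399 with the random block). Both had a mean under 1 FPKM, so neither could be called on this scale. *Ccl3* had 0, 0 and 4 read pairs in WT St and 0 in every TNFR2-/- library, so a response was not detectable at this depth. *Ccl25* had 200, 205 and 216 read pairs in WT St, with a log2 difference of -0.01 and a 95% interval of -0.21 to 0.19.

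The size of the fitted change depended on the scale for genes near 0 without cytokines. With annotated exon lengths in place of the deposited divisors, the WT response was 2.39 for *Ccl11* and 5.26 for *Ccl5*, and *Ccl12* was called (1.66, adjusted p 0.0206). For *Ccl20* it was 7.42 with voom on the recovered reads. The direction was the same in each.

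**Figure D2:**
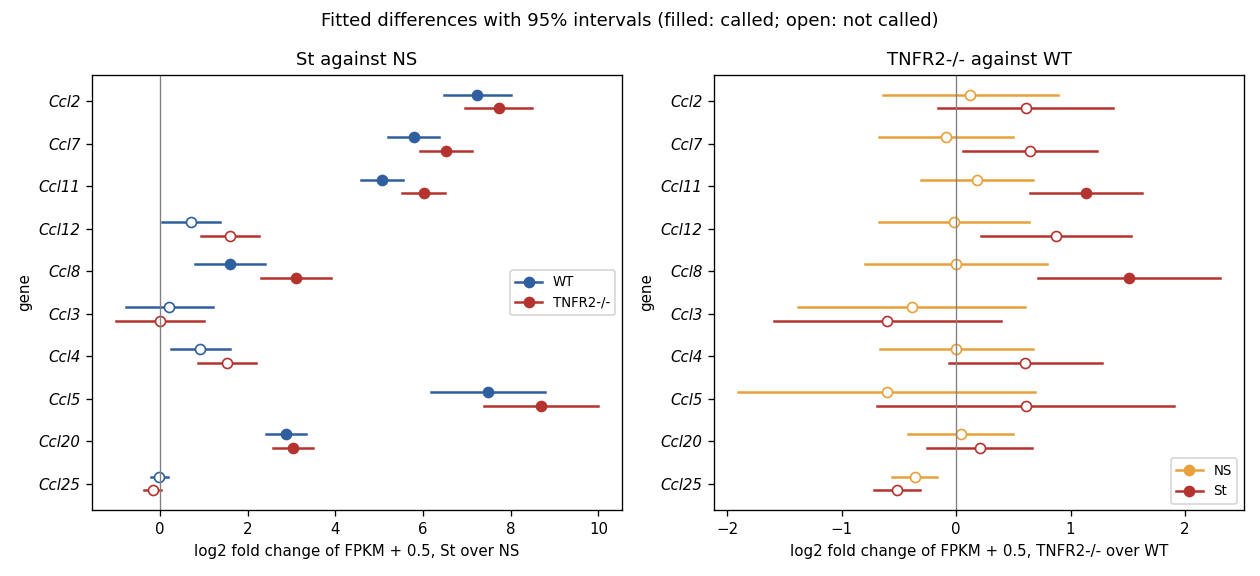
Fitted log2 fold changes of FPKM + 0.5 with 95% intervals from limma, for St over NS in each genotype (left) and for TNFR2-/- over WT in each condition (right). Filled circles are called genes. *Ccl2*, *Ccl5*, *Ccl7*, *Ccl8*, *Ccl11* and *Ccl20* are called on the left in both genotypes, and *Ccl8* and *Ccl11* on the right in St.

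In TNFR2-/- OPCs 6 chemokines were called higher in St than in NS, and these 6 were the ones named for WT. Of all genes 5.41% were called higher and 4.68% lower in TNFR2-/- St vs. TNFR2-/- NS, or 978 and 846 genes, which became 1106 and 559 with median-of-ratios scaling. With the deposited scaling the median log2 fold change was 3.07 over the members against -0.11 over all genes. Groups did not overlap, with St higher, for 8 members, as for 12.7% of all genes. *Ccl2* reached 54151, 53324 and 39728 read pairs in replicates 2, 4 and 5 (7.72 ± 0.35, adjusted p 8.9e-08), 204 times the NS level, and ranked 25th, 25th and 39th by reads. *Ccl7* reached 7637, 8266 and 6289 (6.53 ± 0.26, adjusted p 4.6e-08), 109 times NS. Within cultures *Ccl2* rose 189-, 169- and 321-fold and *Ccl7* 105-, 83.6- and 190-fold. Replicate 5, with the fewest reads of both genes without cytokines, had the largest ratio of both.

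*Ccl5* had 0, 5 and 0 read pairs in TNFR2-/- NS and 752, 854 and 1367 in TNFR2-/- St (8.69 ± 0.59, adjusted p 2.1e-06), a ratio of pooled reads of 606 with a counting interval of 259 to 1868. *Ccl20* went from 0, 2 and 4 to 267, 320 and 204 (3.03 ± 0.21, adjusted p 2.2e-06), a ratio of pooled reads of 134. *Ccl11* went from 0, 1 and 0 to 220, 134 and 118 (6.02 ± 0.22, adjusted p 2.2e-08). *Ccl8* went from 0 in each library to 64, 70 and 225 (3.10 ± 0.36, adjusted p 0.000121), at least 122-fold higher against 3 reads over the NS group. *Ccl4* went from 0 to 20, 46 and 85 read pairs (1.53 ± 0.30, adjusted p 0.00404), at least 51.3-fold higher, and *Ccl12* from 0 to 40, 43 and 118 (1.60 ± 0.30, adjusted p 0.00282), at least 68.3-fold higher. Both passed the adjusted p and the fold threshold but had a mean under 1 FPKM over the 12 libraries. *Ccl25* had 146, 158 and 122 read pairs, with a log2 difference of -0.17 ± 0.09 from NS (adjusted p 0.206, or 0.0472 with the culture as a random replicate block).

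**Figure D3:**
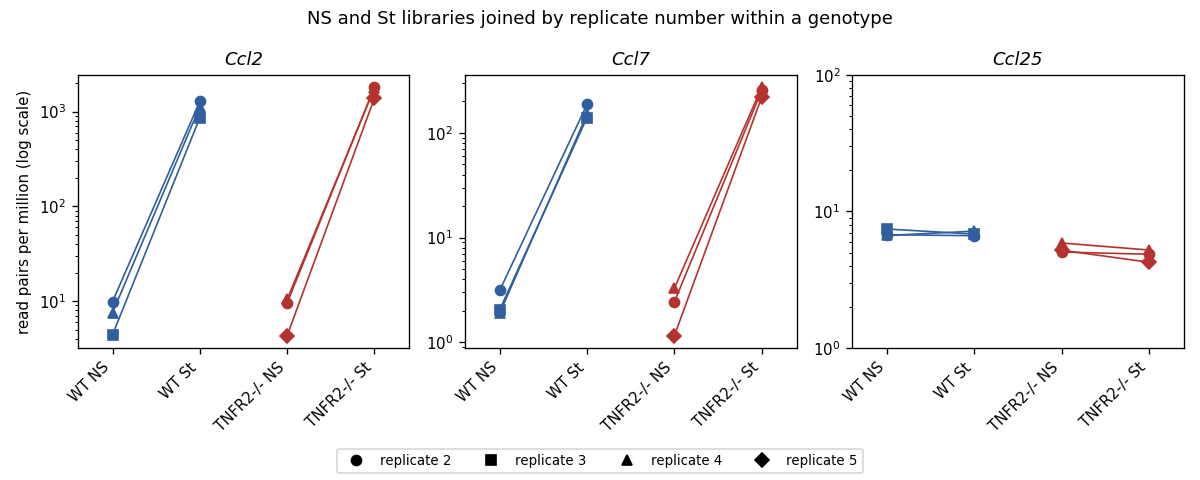
Levels in RPM, on a log scale, of *Ccl2*, *Ccl7* and *Ccl25* in NS and St libraries, joined by replicate number within a genotype. *Ccl2* and *Ccl7* rise in all 6 cultures, *Ccl2* by 129- to 321-fold and *Ccl7* by up to 190-fold, while the *Ccl25* lines are close to level, at 0.816 to 1.08 times NS.

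*Ccl7* had 0.134 to 0.163 reads for each read of *Ccl2* in the 6 St libraries, and 0.252 to 0.462 in the 6 NS libraries. The 10 members together held 328 to 605 read pairs in NS libraries and 31136 to 63297 in St libraries, or 0.104% to 0.211% of the St libraries. *Ccl2* made up 82.3% to 85.7% of the members' reads in St libraries and *Ccl7* 11.5% to 13.5%. *Ccl25* made up 29.6% to 53.3% in NS and 0.231% to 0.658% in St libraries.

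Without cytokines the libraries were compared by their genotype label. *Ccl25* was lower in TNFR2-/- NS than in WT NS by the adjusted p, at 17.9 ± 1.46 against 23.1 ± 1.39 FPKM (SD, n = 3), a log2 difference of -0.36 ± 0.09 (adjusted p 0.0335) that is below the fold threshold. Its groups did not overlap, as for 14.3% of all genes in that direction. The adjusted p was above 0.05 in 9 of the 26 alternatives, up to 0.129. An unadjusted p up to 0.05 in limma was met by 1 of 10 members, *Ccl25*, and by 5452 of the 18081 genes tested. No member was called in limma or with voom, whereas 2.9% of all genes, or 524, were called in either direction in the limma fit. That count was 49 and 54 when replicate 3 or 4 of WT NS was left out, 229, 952 and 79 without TNFR2-/- NS replicates 2, 4 and 5, and 7 in a fit of the 6 libraries compared. For *Ccl2* the difference was 0.12 with a 95% interval of -0.64 to 0.89, and for *Ccl7* -0.09 with an interval of -0.68 to 0.49, so that both intervals hold differences in either direction.

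After stimulation *Ccl8* and *Ccl11* were called higher in TNFR2-/- St than in WT St, and no member was called lower. Of all genes 1.18% were called higher and 0.614% lower in this comparison, 325 genes in all. That count was 196 without WT NS replicate 4, 193, 49 and 39 without WT St replicates 2, 3 and 4, 129 and 73 without TNFR2-/- St replicates 2 and 5, and 47 in a fit of the 6 libraries compared. It rose to 464 without TNFR2-/- St replicate 4, and to 421 and 439 without TNFR2-/- NS replicates 4 and 5. *Ccl11* was at 16.4 ± 2.38 FPKM in WT St and 37.5 ± 12.6 in TNFR2-/- St (1.13 ± 0.22, adjusted p 0.0253), and its lowest TNFR2-/- library, with 118 read pairs, lay above its highest WT library, with 81. *Ccl8* was at 1.02 ± 0.290 FPKM in WT St and 4.50 ± 3.57 in TNFR2-/- St (1.51 ± 0.36, adjusted p 0.0419), again with no overlap, and 225 of its 359 read pairs in TNFR2-/- St came from replicate 5. Without that replicate the *Ccl8* difference was 0.97 (adjusted p 0.0292) and that of *Ccl11* 1.29 (adjusted p 0.0477), both past the adjusted p and fold thresholds, but the mean of *Ccl8* over the other 11 libraries was 0.724 FPKM, under the 1 FPKM a call needs.

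Neither call held in every fit. Without WT St replicate 3 the adjusted p was 0.139 for *Ccl8* and 0.102 for *Ccl11*, and without WT St replicate 4 it was 0.127 and 0.0943. The *Ccl11* call was lost without TNFR2-/- St replicate 2 (0.88, adjusted p 0.0542) and that of *Ccl8* without WT St replicate 2 (adjusted p 0.0631) and without any of WT NS replicates 2, 3 or 4 or TNFR2-/- NS replicate 2 (adjusted p 0.0571 to 0.0639). With the culture as a random replicate block the adjusted p of *Ccl8* was 0.0593. In voom on the recovered reads both were called, with adjusted p 0.0413 for *Ccl8* and 0.0175 for *Ccl11*.

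Groups did not overlap between genotypes, with TNFR2-/- St higher, for 5 members, the called pair and *Ccl2*, *Ccl5* and *Ccl7*, as for 15.4% of all genes. The *Ccl2* mean was 2882 ± 561 FPKM in WT St against 4366 ± 612 in TNFR2-/- St, which on the log2 scale is 0.61 with an interval of -0.16 to 1.37 (adjusted p 0.286). For *Ccl7* the means were 143 ± 22.2 and 222 ± 24.6 FPKM (0.64, interval 0.06 to 1.23, adjusted p 0.155), and this gene was called with voom (0.65, adjusted p 0.0217) and with a weight for each library (0.71, adjusted p 0.0473). *Ccl5* was at 224 ± 26.2 and 354 ± 129 FPKM (0.61, interval -0.69 to 1.91, adjusted p 0.540). *Ccl12* (0.88, adjusted p 0.0973), *Ccl4* (0.61, adjusted p 0.228) and *Ccl20* (0.20, interval -0.25 to 0.66, adjusted p 0.563) overlapped between genotypes.

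The TNFR2-/- St libraries ordered differently for different members. Replicate 5 was highest for *Ccl4*, *Ccl5*, *Ccl8* and *Ccl12*, at 3.76, 2.24, 8.42 and 5.62 times the WT St mean, and lowest for *Ccl2*, *Ccl7*, *Ccl11*, *Ccl20* and *Ccl25*. Replicate 2 was lowest for *Ccl4*, *Ccl5*, *Ccl8* and *Ccl12*, at 0.847, 1.18, 2.29 and 1.82 times that mean, and highest for *Ccl11* at 3.18 times. Replicate 5 also had the highest astrocyte marker sum of the St libraries, at 4496 RPM against 2852 and 2920 in replicates 2 and 4, and the microglia and macrophage marker sum was higher in each TNFR2-/- St library, up to 22.2, than in any WT St library, at 17.8 to 19.8. *Cd68*, a lysosomal protein of macrophages that holds much of this sum, was at 25.5 ± 3.14 FPKM in TNFR2-/- St against 19.3 ± 1.31 in WT St with no overlap (0.39, adjusted p 0.183), and was called higher in TNFR2-/- St than in TNFR2-/- NS (0.92, adjusted p 0.00297). Of 8 astrocyte markers 2 were called higher in TNFR2-/- St than in WT St, with a median of 0.80. Of the 7 mural and fibroblast markers tested none was called, with a median of -1.02. The sum over the 8 listed was lowest in replicate 5, at 76.4 against 469 and 213 in replicates 2 and 4. *Acta2* held most of that sum, at 69.9 RPM against 460 and 205. Of the collagen markers, *Col1a1* was also lowest in replicate 5 (2.82 RPM against 5.40 and 5.79). *Col1a2* was highest there (0.941 against 0.333 and 0.529), and *Col3a1* lay between the others (0.697 against 0.733 and 0.397). The part of astrocytes, of microglia and macrophages, or of mural cells and fibroblasts in these differences was not tested. In bulk RNA, fewer cells of a type and less RNA per cell cannot be told apart.

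**Figure D4:**
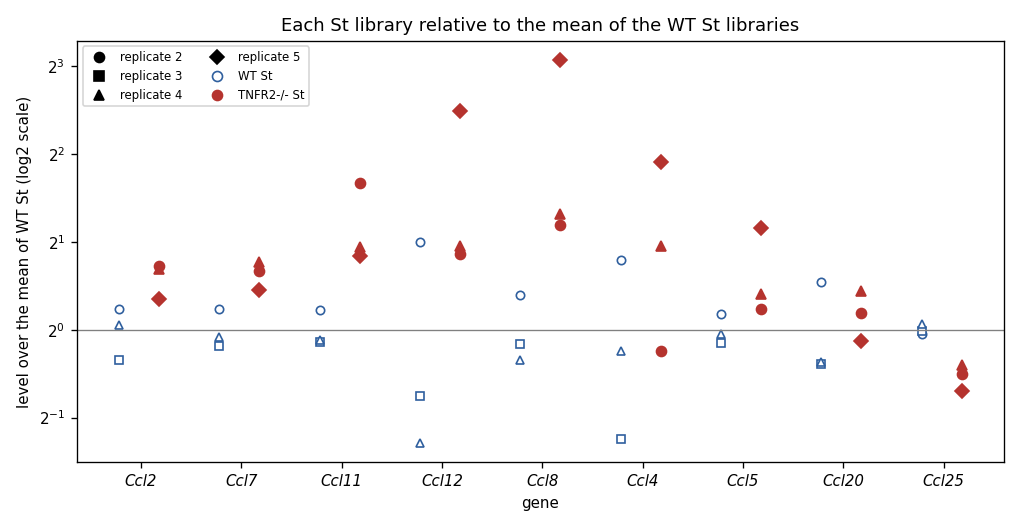
Level of each St library over the mean of the WT St libraries, on a log2 scale, for the 9 members with more than a few reads. Open points are WT St and filled points TNFR2-/- St, shaped by replicate. For *Ccl8* the 3 TNFR2-/- libraries lie at 2.29, 2.49 and 8.42, and for *Ccl25* at 0.706, 0.759 and 0.617.

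The test of whether the response to cytokines differs between genotypes called no member in limma, with voom or with the culture as a block. With the culture as a random replicate block 68 of all genes were called. Over the 25 alternatives run the lowest adjusted p was 0.0842 for *Ccl8* and 0.0899 for *Ccl11*. In the main limma fit 2 of 10 members had an unadjusted p up to 0.05, *Ccl8* (1.51 ± 0.51, adjusted p 0.543) and *Ccl11* (0.95 ± 0.31, adjusted p 0.533). So did 1437 of the 18081 genes tested, and of all genes 0.00553% were called. For *Ccl2* the TNFR2-/- response minus the WT response was 0.48 with an interval of -0.60 to 1.57, and for *Ccl7* 0.74 with an interval of -0.09 to 1.56. The 4 comparisons share libraries, so the genotype difference in St and the difference between responses are not independent of the responses themselves.

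*Ccl25* passed no test of the response to cytokines in either genotype in the limma fit and was lower by the adjusted p in TNFR2-/- libraries under both conditions. In St it was at 15.9 ± 1.63 FPKM against 22.9 ± 0.896 in WT (-0.52 ± 0.09, adjusted p 0.0187), short of the fold threshold, with groups that did not overlap, as for 17.3% of all genes in that direction. When 1 library was left out the adjusted p was 0.0736 for replicate 3 and 0.0788 for replicate 4 of WT St, and 0.0578 for replicate 5 of TNFR2-/- St. *Ccl25* shares 204 exon bases with *Elavl1*, which encodes an RNA-binding protein and is transcribed from the opposite strand, and no source used here states whether counting used strand. *Elavl1* was at 181 ± 7.83 FPKM in WT NS, 143 ± 17.9 in TNFR2-/- NS, 165 ± 4.20 in WT St and 128 ± 7.97 in TNFR2-/- St. It was also lower in TNFR2-/- libraries, by a log2 difference of -0.35 ± 0.08 in NS (adjusted p 0.0315) and -0.36 ± 0.08 in St (adjusted p 0.0407). What share of the *Ccl25* counts could be reads of *Elavl1* was not tested.

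**Figure D5:**
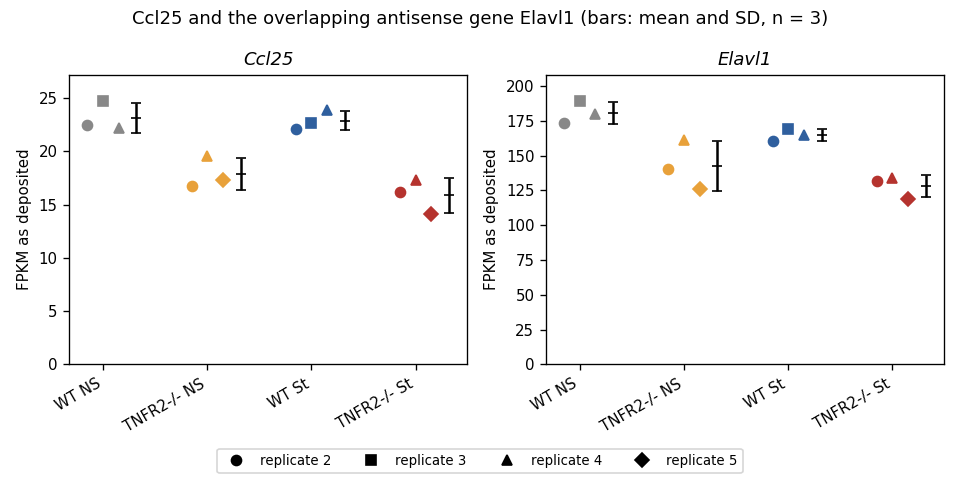
FPKM as deposited of *Ccl25* and of *Elavl1*, the antisense gene that overlaps it, in each library, with group mean and SD (n = 3). Both genes are lower in TNFR2-/- than in WT libraries, *Ccl25* at 17.9 against 23.1 in NS and at 15.9 against 22.9 in St.

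Of 14 other CC chemokines listed, 13 were in the files and 5 passed the filter, of which *Ccl9* and *Ccl17*, named after their values were seen, passed the adjusted p in WT St vs. WT NS with a mean under 1 FPKM. *Ccl17* had 8, 13 and 19 read pairs in WT NS and 34, 31 and 21 in WT St (0.56, adjusted p 0.0348), and *Ccl9* had 2, 3 and 0, then 16, 10 and 6 (1.43, adjusted p 0.0101). *Ccl6* had at most 8 read pairs in a library. Of 16 CC and atypical chemokine receptors 6 passed the filter. *Ackr3*, an atypical receptor that scavenges CXCL12, was called in both genotypes, from 111, 75 and 96 read pairs in WT NS to 1006, 941 and 917 in WT St (2.74 ± 0.11, adjusted p 4.9e-08), and with 3.22 ± 0.11 in TNFR2-/- (adjusted p 1.4e-08). In St it was higher in TNFR2-/- libraries by 0.56 ± 0.11 (adjusted p 0.0253), under the fold threshold.

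Most genes listed for the NF-κB, IRF and STAT pathways rose with the cocktail in both genotypes. Of 14 NF-κB genes 11 were called higher in either genotype. The median log2 fold change of the 14 was 1.51 in WT and 2.20 in TNFR2-/-. The called genes include *Bcl3*, a nuclear cofactor (5.93 in WT and 5.44 in TNFR2-/-), *Tnfaip3*, the feedback inhibitor A20 (4.02 and 4.43), and *Nfkbia*, which encodes IκBα (2.70 and 3.27). Of 12 IRF and STAT genes 10 were called higher in each genotype, among them *Irf8* (8.15 and 7.83) and *Irf1* (7.28 and 6.69), with *Stat2* at 3.63 and 3.51, each a log2 fold change. Of 8 factors that act on the decay or stability of chemokine mRNA 3 were called higher in each, *Zfp36*, which encodes tristetraprolin (3.76 and 4.27), *Zc3h12a*, which encodes Regnase-1 (2.06 and 2.27), and *Zfp36l1* (1.77 and 2.05).

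Between genotypes fewer genes of these lists were called. In St 1 of 12 IRF and STAT genes was called higher in TNFR2-/- libraries, *Irf7* (0.87 ± 0.21, adjusted p 0.0458), and 1 of 14 NF-κB genes passed the adjusted p, *Nfkbia* (0.46 ± 0.11, adjusted p 0.0452), under the fold threshold. In NS *Irf1* (0.66 ± 0.13, adjusted p 0.0188), *Bcl3* (0.94 ± 0.25, adjusted p 0.0412) and *Nfkbie* (0.61) were called higher and *Rel*, an NF-κB subunit (-0.74 ± 0.13, adjusted p 0.0156), lower in TNFR2-/- libraries. *Bcl3* was at low counts there, with 12, 2 and 8 read pairs in WT NS and 18, 19 and 17 in TNFR2-/- NS. Of the 8 factors of mRNA decay or stability none was called between genotypes, but 4 passed the adjusted p in NS and 4 in St. Of the 18081 genes tested, 1964 passed the adjusted p in NS and 985 in St. Of the 7 receptor genes of the 3 cytokines 4 were called higher in WT St and 3 in TNFR2-/- St. *Il1r1*, which binds IL1β, was also higher in TNFR2-/- libraries than in WT in NS (1.09 ± 0.29, adjusted p 0.0417) and in St (1.21 ± 0.29, adjusted p 0.0440), and *Il1rap*, its coreceptor, lower in NS (-0.60 ± 0.10, adjusted p 0.0142). *Tnfrsf1a*, the gene of TNFR1, rose by 1.38 ± 0.08 in WT (adjusted p 5e-07) and by 1.06 ± 0.08 in TNFR2-/- OPCs (adjusted p 3.4e-06).

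The genes whose pattern over the 12 libraries was most like that of a member were found by Pearson's r on log2(FPKM + 0.5) among 13547 genes outside the family, as a description that rests mainly on the split between NS and St. For *Ccl2* they were *Nfkb2* (0.999), *Rnf19b* (0.997), *Socs3* (0.996), *Mlkl* (0.996) and *B2m* (0.996). For *Ccl5* they were *Tubb3* (0.995), *Has2* (0.994), *Rspo3* (0.992), *Zfp36* (0.990) and *Gm12250* (0.990). For *Ccl20* they were *Cxcl2* (0.992), *Serpina3g* (0.990), *Mlkl* (0.990), *Olfr56* (0.990) and *Adamts4* (0.989). Of 6 neuron markers *Tubb3* was called higher in St (3.06 in WT and 3.18 in TNFR2-/-), *Snap25* was called lower (-0.97 and -0.94), and the other 4 were not called. *Has2*, which encodes a hyaluronan synthase, had a mean (n = 3) of 110 FPKM in WT St and 186 in TNFR2-/- St. *Cxcl2*, a neutrophil chemoattractant, had means of 23.5 and 28.6 FPKM.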

How the data were processed

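Values per gene symbol are FPKM as deposited by the authors. Their reads were trimmed (Trim Galore), then aligned to GRCm38 and counted as read pairs (STAR), and they ran EdgeR. Of 45792 entries a table, 229 that share a symbol were left out. A deposited FPKM is a count scaled by the library total and a divisor for the gene, which came within 2-fold of the annotated exons' length for 3 of the 10 members. Read pairs were recovered as whole multiples (tolerance 0.01).

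The main test was limma 3.58.1 in R 4.3.3 on log2(FPKM + 0.5), as 4 group means over 12 libraries with a mean-dependent prior. It was run on 18081 genes whose mean was 0.1 FPKM or more, with Benjamini-Hochberg adjustment over these genes. On this scale the change of low genes is understated. A call required an adjusted p up to 0.05, a change of 1.5-fold or more and a mean FPKM of 1 or more. No source ties the cultures to separate litters, so p-values measure the spread between these cultures. Simulated data with known changes were used to test the steps.

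The members and gene lists were chosen with earlier results of these data known. All members are named. Of each list at most 4 called genes a comparison were named, by size of change, or else the gene with the highest mean, with the 5 genes most like *Ccl2*, *Ccl5* and *Ccl20* and the targeted gene. Genes outside this rule were named after their values were seen.

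Pairing by replicate number was checked over 13554 genes, as the correlation of deviations from group means. NS and St libraries of 1 genotype gave 0.34 to 0.65 where numbers matched (6 pairs) and -0.45 to 0.09 where they did not (12 pairs). For matching numbers of different genotypes (4 pairs) it was -0.06 to 0.20. A number was therefore taken to mark 1 culture within a genotype. Motifs and shared sequences were searched in Python 3.11.15, and figures drawn with matplotlib 3.10.9.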

Additional observations from a re-analysis of the deposited data

How the results depend on the processing

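The number of members called was within 1.5 times the reported count in all alternatives run for WT St vs. WT NS (6 called, 5 to 6 when 1 library was left out), TNFR2-/- St vs. TNFR2-/- NS (6, and 6 to 6) and the difference between responses (0, and 0 to 0). In TNFR2-/- NS vs. WT NS, where 0 members were called (0 to 0 when 1 library was left out), 1 was called by the adjusted p alone. In TNFR2-/- St vs. WT St, where 2 were called, 1 was called with a pseudocount of 0.1 FPKM, without a filter on low values, without the mean-dependent prior, with the culture as a random replicate block (correlation 0.563) and with the replicate number as a block across genotypes. It was 0 in a fit of the 6 libraries compared, and 0 to 2 when 1 library was left out. The mean threshold was applied over all 12 libraries in these counts, also when 1 was left out. Without TNFR2-/- St replicate 5 the mean of *Ccl8* was 0.724 FPKM, so by the mean of the libraries kept it would not be called there. By the mean of the 6 WT libraries, 0.512 FPKM, *Ccl8* would not be called in WT St vs. WT NS. The cause of these changes was not tested. The alternative with exon lengths was chosen after seeing the data, and *Ccl3* could not be tested there. Members with under 10 reads in a library, such as *Ccl3*, are limited by depth.

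Signs turned for differences that passed no threshold. *Ccl25* in WT St vs. WT NS was 0.043 with median-of-ratios scaling and 0.029 with library weights, and -0.044 to 0.034 when 1 library was left out. In TNFR2-/- NS vs. WT NS *Ccl20* was -0.0076 with library weights and -0.00054 to 0.078 when 1 library was left out. *Ccl7* was 0.071 with library weights, 0.038 with the number as a replicate block and -0.34 to 0.24 when 1 library was left out, and *Ccl2* -0.19 to 0.52. For *Ccl3* leaving out 1 library gave -0.39 to 0.60 in WT St vs. WT NS and -0.60 to 0.39 for the difference between responses. The difference between responses of *Ccl20* was -0.20 with voom.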
